A study of Mus musculus with 9 samples.

Results

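The TNF superfamily ligands described here are the 9 genes Lta, Ltb, Tnf, Fasl, Tnfsf10, Cd40lg, Tnfsf8, Tnfsf11 and Tnfsf14, chosen by symbol from a table of 41978 genes. All 9 passed the filter on low values, as did 30693 genes in all. Expression was measured by bulk RNA-seq in semimature SP4 thymocytes, the CD4 single-positive cells of the thymus that have passed positive selection, from Nur77-eGFP BAC Tg mice. In these mice a transgene reports Nr4a1 transcription as GFP, and every group carries it. Cells were sorted as live CD25- CD69+ CD24+ CD4+ CD8- thymocytes and divided by GFP into the lowest, a medium and the highest slice of about 10% each (GFPlo, GFPmed and GFPhi), with 10000 cells per sample and 3 biological replicates per group. The study's methods give C57BL/6 as the background of its strains and an age of 3 to 10 weeks for most experiments, with both sexes used. The labels give the gate as CD24+ and the methods as CD24hi, while the main text calls it CD24lo. Because the RNA is bulk, fewer cells of a type and less RNA per cell cannot be told apart.

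TNF superfamily ligands are mostly membrane proteins that act as trimers on receptors of the TNF receptor superfamily on neighbouring cells or on the same cell. Receptors with a death domain, such as Fas, can start apoptosis through FADD and caspase-8, whereas others recruit TRAF proteins and switch on canonical or alternative NF-kB signalling. In the thymus, the lymphotoxins, RANKL (Tnfsf11) and CD40 ligand made by developing T cells are known to drive the growth and maturation of medullary thymic epithelial cells, which display tissue antigens to those T cells.

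Total reads on genes ran from 7465552 to 14943774 per sample. Nr4a1, the gene that the reporter follows, had 217 ± 32.1 TPM (SD, n = 3) in GFPlo, 374 ± 28.6 in GFPmed and 840 ± 75.0 in GFPhi samples. Summed TPM of 8 CD4 SP markers was 3339 to 3930 in GFPlo and 2946 to 3358 in GFPhi samples, and that of 3 CD8-lineage markers was 40.5 to 44.2 and 31.3 to 33.9. In the first list 0 were called between these groups: Cd3e, Cd3g, Cd4, Cd24a, Zbtb7b and Ccr7 had log2 fold changes of -0.72 to 0.10 that missed the adjusted p, while Gata3 (-0.74) and Cd69 (-0.79), the latter used in the gate, passed it under the fold limit. Of the CD8-lineage genes, Cd8a was called lower (16.7 ± 2.38 TPM in GFPlo and 7.15 ± 1.40 in GFPhi), whereas Cd8b1 (log2 fold change -0.79) and Runx3 (0.96) passed the adjusted p in opposite directions under the fold limit. Some other markers moved with GFP. The 5 Treg markers summed to 172 to 194 TPM in GFPlo, 340.3 to 420 in GFPmed and 732 to 846 in GFPhi samples, and all 5 (Foxp3, Il2ra, Ikzf2, Ctla4 and Tnfrsf18) were called higher in GFPhi than in GFPlo. Most of that sum was Tnfrsf18, with 175 ± 11.5 TPM in GFPlo and 716 ± 68.6 in GFPhi. Foxp3 itself was at 6.57 to 7.04 TPM in GFPlo and 14.0 to 18.4 in GFPhi samples, and Il2ra, which encodes the CD25 that the gate excludes, at 0.606 to 0.741 and 8.11 to 11.2. Markers of mature, egress-ready SP cells did not move together. Klf2, S1pr1 and H2-Q7 were called higher in GFPhi, with log2 fold changes of 2.60, 4.70 and 1.87. Il7r was called lower, from 199.9 ± 17.9 TPM in GFPlo to 56.1 ± 3.42 in GFPhi. The sum of 7 innate-like markers was 22.3 to 27.3 TPM in GFPlo, mostly Nkg7, and 97.1 to 118 in GFPhi, mostly Il2rb. Il2rb was called higher (log2 fold change 3.65), while Nkg7 was not (0.08). Such shares depend on TPM, which divides by the genomic span. By RPKM on exonic length, explained below, Il2rb averaged 3.29 and Nkg7 2.95 in GFPlo, and 48.7 and 3.22 in GFPhi. Thymic epithelium markers summed to 3.86 to 8.96 TPM in GFPlo and 10.3 to 13.2 in GFPhi samples, mostly through Epcam, which was called higher. Sums of TPM for gamma-delta T, B cell, dendritic cell, and macrophage and granulocyte markers overlapped between GFPlo and GFPhi. Their highest values in any sample were 27.2, 31.4, 13.4 and 31.1 TPM. Most of the gamma-delta sum in TPM was Trdc (log2 fold change 0.07). Sox13 of that list was called lower in GFPhi, from 9.73 ± 1.13 to 1.99 ± 0.829 TPM. By RPKM on exonic length, Sox13 averaged 5.15 in GFPlo and 1.07 in GFPhi, and Trdc 4.07 and 4.54. Sox13 thus weighs more in GFPlo on that scale, and the overlap of the gamma-delta sums is stated for TPM only. Pax5, Ebf1, Adgre1, Zbtb16, Foxn1 and Aire, named here as defining markers near 0, had mean TPM under 1. The part of any of these markers in the results on the ligands was not tested.

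Lta, Tnf and Ltb lie side by side on chromosome 17 (GRCm38, GENCODE M21). Lta occupies chr17:35203165-35205351 and Tnf chr17:35199381-35202007, both on the minus strand, so that Lta ends 1157 bp before Tnf begins. Ltb, at chr17:35194439-35196320 on the plus strand, points toward Tnf and ends 3060 bp from it. These 3 neighbours did not move alike across the GFP groups, although the Tnf difference was not called. The sequence before each start is shown, 5′ to 3′ on the gene's strand, from RefSeq promoters of GRCm38.p6. Whether these sequences or their motif matches bear on expression was not tested. The stretches are chr17:35205352-35205541 for Lta, chr17:35202008-35202197 for Tnf and chr17:35194257-35194438 for Ltb, the last ending before the outermost annotated start of Ltb. Capitals mark a match to a searched motif.
Lta: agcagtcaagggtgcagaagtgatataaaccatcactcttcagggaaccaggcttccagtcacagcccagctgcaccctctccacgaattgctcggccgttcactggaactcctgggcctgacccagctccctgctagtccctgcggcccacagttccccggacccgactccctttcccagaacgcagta
Tnf: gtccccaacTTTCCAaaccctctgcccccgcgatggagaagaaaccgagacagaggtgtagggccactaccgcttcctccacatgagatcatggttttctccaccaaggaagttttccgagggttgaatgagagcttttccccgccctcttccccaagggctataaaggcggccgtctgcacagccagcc
Ltb: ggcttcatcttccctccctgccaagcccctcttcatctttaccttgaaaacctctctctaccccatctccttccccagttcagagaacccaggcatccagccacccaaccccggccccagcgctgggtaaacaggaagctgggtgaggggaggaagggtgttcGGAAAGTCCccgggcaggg

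Promoters, taken from 250 bases before to 50 after the start, were in the table for 8 of the 9 ligands, all but Cd40lg. Both strands were searched for the Nr4a site NBRE (AAAGGTCA), NF-kB (GGNNTTTCC), AP-1 (TGACTCA), NFAT (GGAAAATT and TGGAAA) and EGR (GCGTGGGCG) motifs. The NFAT letters can overlap each other and the NF-kB letters. Ltb held an NF-kB match whose first base lies at -87 from the RefSeq start, a motif found in 5.82% of 32851 promoters. Tnf and Tnfsf10 each held TGGAAA, at -181 and -134, as did 21.4% of promoters. Tnfsf14 held AP-1 letters at -160, found in 5.2% of promoters, and TGGAAA at -146. No searched motif was in the windows of Lta, Fasl, Tnfsf8 or Tnfsf11. The short windows below show the match of Tnfsf10 and the AP-1 match of Tnfsf14 in capitals. The TGGAAA of Tnfsf14 is not marked and is cut at the end of its window.
Tnfsf10: ctggatctaggcTTTCCAgcaccatcaggg
Tnfsf14 (AP-1): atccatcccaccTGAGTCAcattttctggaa

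To compare levels between genes, reads were divided by exonic length and by total reads (RPKM on exonic length), because the deposited TPM divides by the genomic span. On this scale Ltb was the most abundant ligand with a mean of 213 over the 9 samples, followed by Cd40lg with 153. Ltb and Cd40lg were close in GFPlo, where Ltb was higher in 2 of 3 samples, and Ltb led in every GFPmed and GFPhi sample. Lta averaged 26.2 and Tnfsf11 24.9, and their order turned with GFP: Tnfsf11 was the higher of the pair in every GFPlo and GFPmed sample and Lta in every GFPhi sample. Tnf averaged 9.47 and Tnfsf10 4.54, in that order in all 9 samples. Tnfsf8 with 2.96, Tnfsf14 with 2.76 and Fasl with 1.59 were the lowest, and the ranges of these neighbours overlapped.

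**Figure D1:**
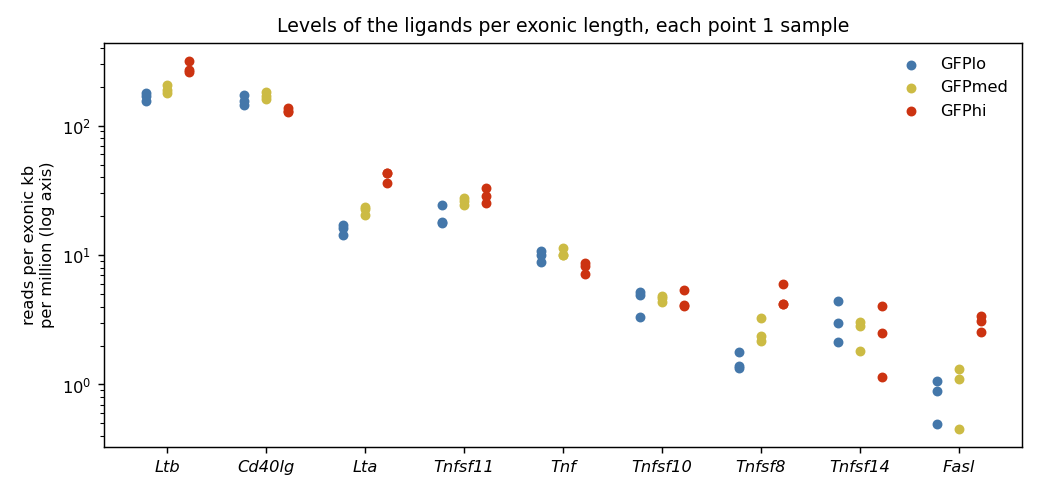
RPKM on exonic length of each ligand (log axis), with 1 point per sample and genes ordered by their mean over all 9 samples. Ltb and Cd40lg stand above the rest at means of 213 and 153, and Lta moves past Tnfsf11 in the GFPhi samples.

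Between GFPhi and GFPlo, 2 of the 9 ligands, Lta and Tnfsf8, were called higher (limma, a log2 fold change of 1 or more in size and p at most 0.05 after Benjamini-Hochberg adjustment over all genes tested) and 0 were called lower, where 1.26% of all genes tested were called higher and 0.404% lower. Ltb also passed the adjusted p, below the fold limit, which makes 3 ligands against a background of 2.38%, with 0 lower against 1.51%. By position alone, 5 ligands had every GFPhi sample above every GFPlo sample (Lta, Ltb, Tnfsf8, Fasl and Tnfsf11), beside 8.26% of genes, and 2 had every GFPhi sample below (Tnf and Cd40lg), beside 9.92% of genes. All positions given here are in deposited TPM and depend on scaling. Median-of-ratios scales ran from 0.874 (GFPhi replicate 2) to 1.21 (GFPlo replicate 1). Divided by them, GFPhi and GFPlo samples overlap for Tnf, Cd40lg and Tnfsf11, and GFPmed and GFPlo samples for Ltb. The median log2 fold change was 0.47 over the ligands and -0.087 over all genes tested. All fold changes were taken on log2(TPM + 1), where the pseudocount shrinks the change of ligands at a few TPM such as Tnfsf8 and Fasl.

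**Figure D2:**
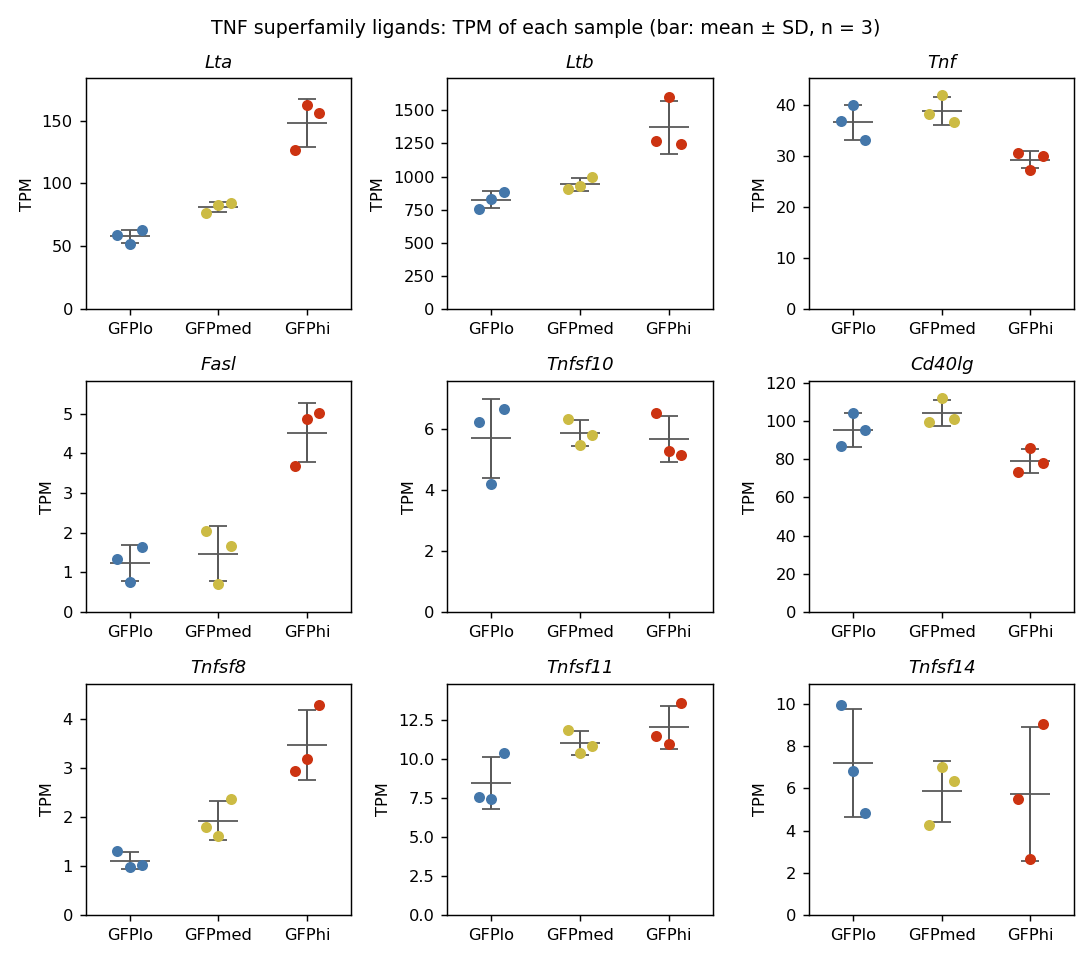
TPM of each ligand in the 9 samples, each panel on its own linear axis from 0, with points for samples and bars for the mean ± SD of 3. Lta, Ltb and Tnfsf8 step up from GFPlo over GFPmed to GFPhi without overlap, the 3 GFPhi samples of Fasl lie above its other 6, a difference that was not called, and Tnf and Cd40lg are lowest in GFPhi.

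Lta encodes lymphotoxin-alpha, which is secreted as a homotrimer that binds the TNF receptors or joins lymphotoxin-beta at the cell surface. Its TPM was 59.1, 52.2 and 62.6 in the GFPlo samples, 76.4, 82.8 and 84.1 in GFPmed, and 126, 162 and 156 in GFPhi. All 3 groups were separate, and the GFPhi mean was 2.56 times the GFPlo mean. On the log2 scale Lta rose by 1.33 between GFPlo and GFPhi, with a standard error of 0.11 (adjusted p = 0.00077). From GFPmed to GFPhi the log2 fold change was 0.85 (adjusted p = 0.0117), and from GFPlo to GFPmed 0.48 (adjusted p = 0.50). Between 169 and 652 reads per sample lie behind these values. The call against GFPlo held under all 21 alternatives, at log2 fold changes of 1.26 to 1.45.

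Ltb encodes lymphotoxin-beta, which anchors lymphotoxin-alpha in the membrane as the ligand of the lymphotoxin-beta receptor. Its TPM was 756, 833 and 885 in GFPlo, 903, 929 and 996 in GFPmed, and 1268, 1600.1 and 1244 in GFPhi. All groups were again separate, although the step from GFPlo to GFPmed was small beside the spread, with a log2 fold change of 0.19 (95% interval -0.05 to 0.44). GFPhi exceeded GFPlo 1.66-fold in the means, which is 0.73 on the log2 scale with a standard error of 0.11 (adjusted p = 0.0103) and under the fold limit. That adjusted p became 0.18 with median-of-ratios scaling and 0.057 when only both groups compared were fitted.

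Tnf encodes the cytokine TNF, cut from the membrane by ADAM17. It had 37.0, 40.0 and 33.1 TPM in GFPlo, 38.2, 42.0 and 36.6 in GFPmed, and 30.6, 27.4 and 30.0 in GFPhi samples. Every GFPhi sample lay below every other sample, but the difference from GFPlo, -0.31 on the log2 scale with a standard error of 0.10, was not called (adjusted p = 0.18). Its reads numbered 123 to 246 per sample. Within a sample, the ratio of Lta to Tnf reads averaged 1.36 ± 0.250 (SD, n = 3) in GFPlo, 1.78 ± 0.153 in GFPmed and 4.34 ± 0.771 in GFPhi, a change of 3.18 times between the outer groups, and it needs no scaling between libraries. The ratio of Ltb to Tnf was 15.7 ± 2.45, 16.9 ± 1.80 and 32.7 ± 6.81, and that of Lta to Ltb 0.0866 ± 0.00955, 0.106 ± 0.00325 and 0.134 ± 0.0177. These ratios were chosen after the values were seen and are given as a description. Among the neighbours of the cluster Lta differed most between the outer groups and Ltb less, while the Tnf difference pointed the other way and was not called.

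**Figure D3:**
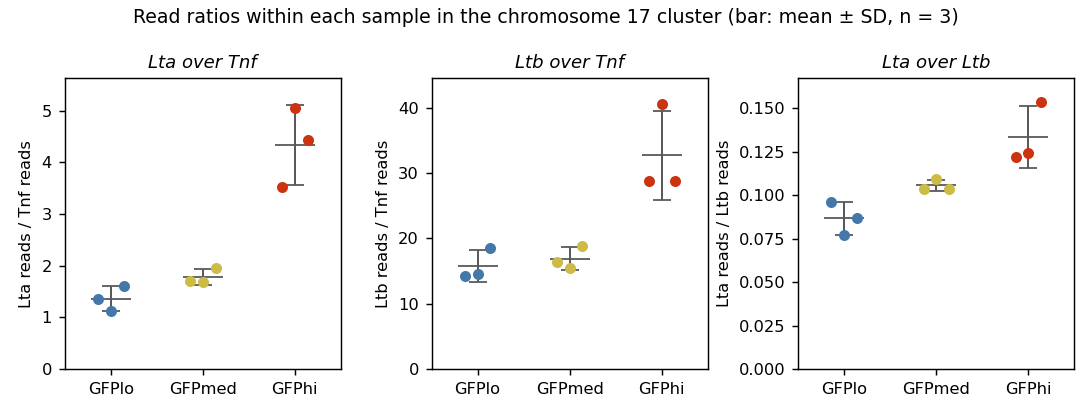
Ratio of reads between neighbouring genes of the chromosome 17 cluster in each sample (points), with mean ± SD of 3 samples per group and axes from 0. The ratio of Lta to Tnf is 1.11 to 1.61 in GFPlo, 1.68 to 1.96 in GFPmed and 3.52 to 5.05 in GFPhi samples.

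Tnfsf8, at chr4:63831308-63861347 on the minus strand, encodes CD30 ligand. It was at a low level throughout, with 1.30, 0.980 and 1.02 TPM in GFPlo, 1.79, 1.61 and 2.36 in GFPmed, and 2.93, 3.17 and 4.27 in GFPhi samples. No value overlapped between groups, and the GFPhi mean was 3.14 times that of GFPlo. On the log2(TPM + 1) scale Tnfsf8 rose by 1.08 (standard error 0.21, adjusted p = 0.0345). With TPM recomputed on exonic length, which lifts this long gene well above the pseudocount, the log2 fold change was 1.46 (adjusted p = 0.0066), and limma-voom on the solved reads, 46 to 215 per sample, gave 1.64 (adjusted p = 0.00082). The call was lost under 14 of 20 alternatives, among them the omission of any of the 9 samples, at adjusted p from 0.055 to 0.137, and with a replicate block the adjusted p was 0.063.

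Fasl and Tnfsf10 encode the death ligands of the family, FasL and TRAIL. Fasl, at chr1:161780689-161788495 on the minus strand, had 1.35, 0.749 and 1.63 TPM in GFPlo, 2.05, 0.699 and 1.66 in GFPmed, and 3.68, 4.87 and 5.01 in GFPhi samples. GFPlo and GFPmed overlapped and GFPhi stood above both, so that 0.089 of the difference between the outer means was reached in GFPmed. Against GFPlo, GFPhi differed by 1.31 on the log2 scale with a standard error of 0.29, and the adjusted p of 0.0534 just missed the threshold. The level rests on 8 to 38 reads per sample in GFPlo and GFPmed and 57 to 66 in GFPhi. Fasl was called under 4 of 20 alternatives: without the eBayes trend (adjusted p = 0.047), without GFPmed replicate 2 (0.049), and with limma-voom on reads, where the log2 fold change was 1.90 with library totals (0.0143) and 1.97 with size factors (0.0040). Tnfsf10 had 4.22 to 6.65 TPM in GFPlo, 5.50 to 6.35 in GFPmed and 5.17 to 6.53 in GFPhi samples. Its groups overlapped throughout, with a log2 fold change of 0.01 between GFPhi and GFPlo and a 95% interval from -0.47 to 0.48.

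Cd40lg, at chrX:57212143-57224042 on the plus strand, encodes CD40 ligand, the helper T cell signal to B cells, dendritic cells and epithelium. Its TPM was 86.7, 104 and 95.1 in GFPlo, 99.4, 112 and 101 in GFPmed, and 73.3, 85.7 and 77.7 in GFPhi samples. Like Tnf, it was lowest in GFPhi, with no GFPhi sample reaching any other sample. GFPhi differed by -0.27 from GFPlo on the log2 scale, with a standard error of 0.09 (adjusted p = 0.23), and by -0.40 from GFPmed (adjusted p = 0.111), and neither difference was called. The difference from GFPmed passed the adjusted p in 3 of 22 settings, at 0.0070 at the lowest, and stayed under the fold limit in all of them.

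Tnfsf11 encodes RANKL and Tnfsf14 LIGHT, a ligand of HVEM and of the lymphotoxin-beta receptor. Tnfsf11 had 7.57, 7.46 and 10.4 TPM in GFPlo, 11.9, 10.4 and 10.8 in GFPmed, and 11.5, 11.01 and 13.6 in GFPhi samples. The GFPhi samples lay above the GFPlo samples and overlapped with GFPmed, and the log2 fold change of 0.47 was not called (standard error 0.17, adjusted p = 0.23). In the means, 0.76 of the Tnfsf11 difference was reached in GFPmed, but its GFPlo and GFPmed samples overlapped. The log2 fold change from GFPlo to GFPmed was 0.36, with an interval from -0.03 to 0.74, and was not called. For Fasl this step was 0.12, with an interval from -0.56 to 0.79. Whether these ligands differ in the step to GFPmed was not tested. Tnfsf14 scattered within groups, from 4.85 to 9.95 TPM in GFPlo, 4.25 to 7.01 in GFPmed and 2.67 to 9.03 in GFPhi samples on 23 to 71 reads. Its interval for GFPhi against GFPlo, -1.30 to 0.58 on the log2 scale, covers changes in either direction.

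The GFPmed samples show whether a ligand changed in steps. Against GFPlo, 0 of 9 ligands were called in GFPmed, where 0.0554% of genes were called higher and 0.00326% lower, although Lta passed an unadjusted p (0.0029). Lta, Ltb and Tnfsf8 had every GFPmed sample above every GFPlo sample, beside 5.55% of genes. In GFPhi against GFPmed, 0 ligands were called, beside 0.541% of genes called higher and 0.15% lower, and 1 (Lta) passed the adjusted p under the fold limit, beside 0.899% of genes. There 4 ligands lay above without overlap (Lta, Ltb, Tnfsf8 and Fasl), beside 7.11% of genes, and Tnf and Cd40lg lay below, beside 9.41%. All 3 groups stood in full order, GFPlo below GFPmed below GFPhi, for Lta, Ltb and Tnfsf8, which 1.67% of genes also did. An exact permutation test of the ordered trend (two-sided, 1680 arrangements) gave p = 0.00119 for each of these 3, the smallest this design can give, and 0.0469 after adjustment over all genes, a level that 2.54% of genes reached. The same exact permutation test gave p = 0.0095 for Fasl and 0.0119 for Tnfsf11 (adjusted 0.133 and 0.149), and p = 0.0583 for Tnf and 0.106 for Cd40lg. At an unadjusted p of at most 0.05, 5 ligands rose with GFP, beside 7.14% of genes, and 0 fell, beside 7.85%. GFPmed differed from the midpoint of GFPlo and GFPhi for 0 of 9 ligands by limma, as 0.0195% of genes did, and for 2 of them, Tnf and Cd40lg, at an unadjusted p under 0.05 (0.025 and 0.013).

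**Figure D4:**
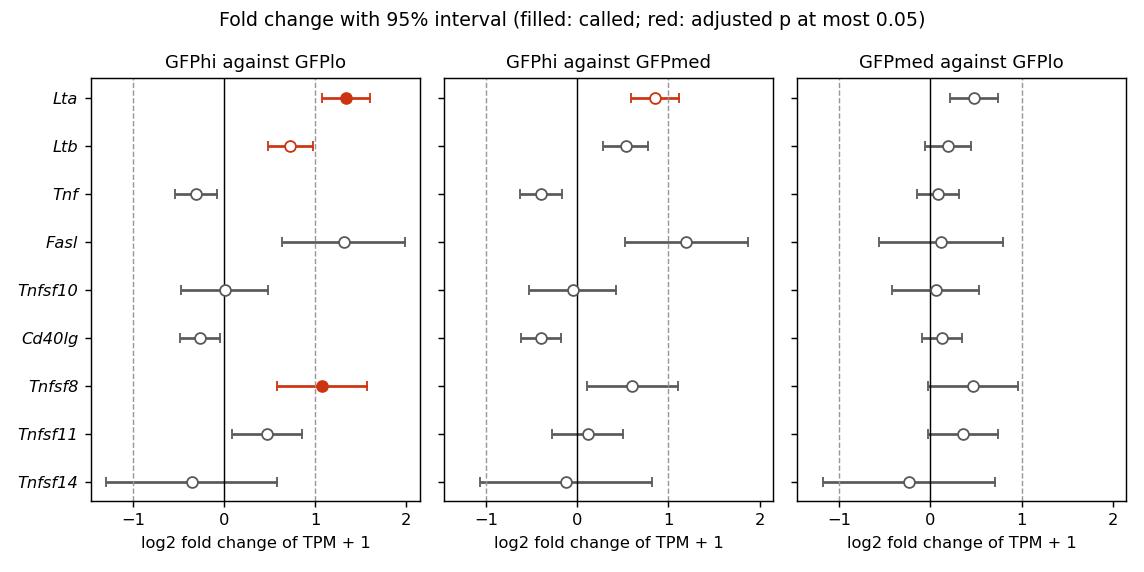
Log2 fold change of TPM + 1 with its 95% interval for each ligand in the 3 comparisons, with dashed lines at the fold limit of 1. Filled points are called and red marks an adjusted p of at most 0.05, which Lta, Ltb and Tnfsf8 reach between GFPhi and GFPlo and Lta between GFPhi and GFPmed.

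For both ligands called, the 3 genes most like them over the 9 samples were sought by Pearson's r of log2(TPM + 1) among 12128 genes with a mean TPM of at least 10. Lta was most like Foxn3 (r = 0.994), Nr4a1 (0.991) and Nfkb2 (0.990), the last encoding an NF-kB subunit of the alternative pathway. Tnfsf8 was most like Nsmf (0.981), Gpr171 (0.973) and Lax1 (0.971), with 0.951 for Nr4a1. These are descriptions over samples that share the same 3 sorted groups. Of 10 TCR-response genes, Nr4a1, Nr4a2, Nr4a3 and Cd5 were called higher in GFPhi than in GFPlo and 0 lower, and Egr3 passed the adjusted p at a log2 fold change of 0.86, under the fold limit (adjusted p = 0.0487). In the other direction Egr1 (-0.76), Egr2 (-0.90) and Cd69 (-0.79) passed the adjusted p under the fold limit, which makes 5 genes higher and 3 lower by adjusted p alone. Over all genes tested, 1.26% were called higher and 0.404% lower, and 2.38% were higher and 1.51% lower by adjusted p alone. Irf4 (0.07) and Myc (-0.26) passed neither.

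Among 12 receptors of the ligands, 8 passed the filter. Of these, 1 was called higher and 0 lower in GFPhi against GFPlo, beside 1.26% and 0.404% of all genes tested. By adjusted p alone 2 were higher and 1 lower, beside 2.38% and 1.51% of genes. The receptor called was Tnfrsf1b, TNF receptor 2, with 10.2, 9.82 and 10.9 TPM in GFPlo, 17.5, 17.4 and 19.4 in GFPmed, and 74.6, 76.3 and 76.4 in GFPhi samples. Its groups were far apart, by 2.77 on the log2 scale over GFPlo with a standard error of 0.09 (adjusted p = 1e-05) and by 2.01 over GFPmed (adjusted p = 0.00014). Tnfrsf1a, TNF receptor 1 with a death domain, went the other way, from 79.5 ± 8.51 TPM in GFPlo to 52.7 ± 5.39 in GFPhi, a log2 fold change of -0.58 (adjusted p = 0.029) under the fold limit. Fas, the receptor of FasL, was at 12.7 ± 1.05 TPM in GFPlo, 13.3 ± 1.12 in GFPmed and 22.3 ± 2.45 in GFPhi, a log2 fold change of 0.76 (adjusted p = 0.0175), also under the limit, and like its ligand its GFPlo and GFPmed samples overlapped. Tnfrsf14, which encodes HVEM, was at 16.5 ± 0.973, 23.8 ± 1.41 and 22.6 ± 2.53 TPM, with a log2 fold change of 0.43 (adjusted p = 0.097). Ltbr, the receptor of the abundant Ltb product, is named after its values were seen: it had 0 to 6 reads per sample.

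Downstream of the receptors, 0 of 14 adaptor and death-signalling genes were called in GFPhi against GFPlo, beside 1.26% of all genes called higher and 0.404% lower. On the higher side lay 12 of them, with a median log2 fold change of 0.15, beside -0.087 over all genes tested. By adjusted p alone 2 were higher, beside 2.38% of genes, and 0 lower, beside 1.51%. The adjusted p was passed under the fold limit by Birc3, which encodes the ubiquitin ligase cIAP2 (37.8 ± 1.55 TPM in GFPlo, 49.1 ± 0.432 in GFPmed and 68.2 ± 6.67 in GFPhi, log2 fold change 0.83, adjusted p = 0.0020), and by Tnfaip3, which encodes the NF-kB inhibitor A20 (72.5 ± 0.865, 93.9 ± 10.1 and 130 ± 14.9 TPM, 0.83, adjusted p = 0.0055). Cflar, which encodes the caspase-8 inhibitor c-FLIP, was at 61.2 ± 4.10 TPM in GFPlo and 46.2 ± 3.37 in GFPhi (log2 fold change -0.40, adjusted p = 0.052). Casp8 and Fadd had log2 fold changes of -0.03 and 0.07. Tradd, Ripk1, Traf1, Traf2, Traf3, Traf6, Birc2 and Map3k14 had log2 fold changes of 0.03 to 0.51 and missed the adjusted p. Of 5 genes of ligand shedding and processing 0 were called. Sppl2a, an intramembrane protease, passed the adjusted p under the fold limit (log2 fold change -0.50, adjusted p = 0.0497), and Adam17 (-0.11), Adam10 (-0.09) and Furin (0.28) did not. Of the other TNF superfamily ligands, 7 were analysed here, 4 passed the filter and 0 were called. Among them Tnfsf4, OX40 ligand, named after its values were seen, had 1 to 16 reads per GFPlo sample and 56 to 58 per GFPhi sample (log2 fold change 0.97, adjusted p = 0.025). Its mean TPM was 0.202 and 1.32, a ratio of 6.57 that the pseudocount shrinks, and the count of these other ligands called higher rose from 0 to 1 under 5 of 21 alternatives: without GFPlo replicate 3, without the fold limit, with limma-voom under both scalings, and with TPM on exonic length.

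**Figure D5:**
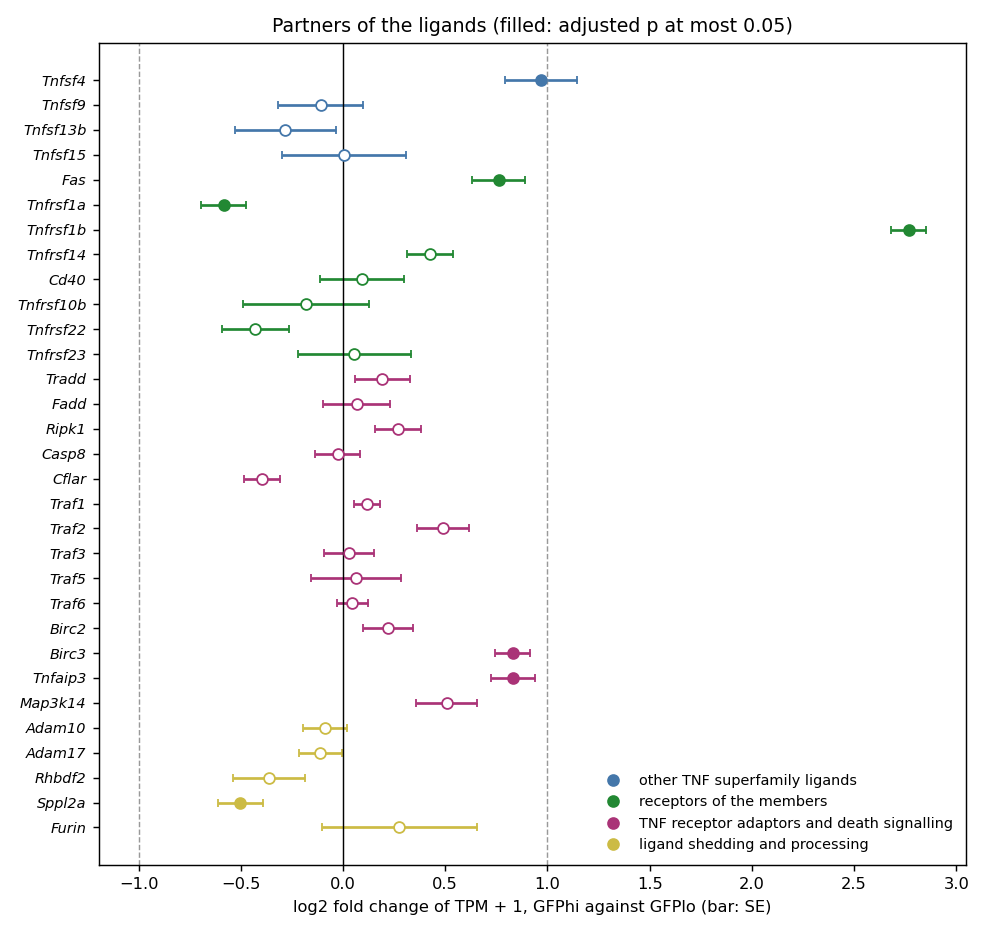
Log2 fold change of TPM + 1 between GFPhi and GFPlo (bar: standard error) for the tested genes of 4 lists around the ligands, with filled points for an adjusted p of at most 0.05. Tnfrsf1b stands apart at 2.77, and Fas, Birc3, Tnfaip3 and Tnfsf4 lie between 0.76 and 0.97. Tnfsf4 passed the filter on low values only through its GFPhi samples.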

How the data were processed

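Bulk RNA-seq of 9 samples of sorted SP4 thymocytes (3 each of GFPlo, GFPmed and GFPhi, grouped by their labels) was used. By the study's methods, cDNA was made with SMART-seq v4 from 2000 cell equivalents of RNA, 200 pg of it entered each library, and paired reads of 100 bases were trimmed with Trim Galore 0.6.10 and aligned with STAR to GRCm38 with GENCODE M25. The submitters' notes name STAR 2.7.11b and DESeq2 1.34.0. After removing identical duplicates, the authors counted reads on genes and deposited TPM. A group's mean signal, its counts divided by size factors, was deposited by the authors too. Deposited log2 fold changes, adjusted p-values and score flags of the authors' own comparisons were not used.

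The length behind TPM equalled the mean transcript span, introns included, for 97.0% of 20121 protein-coding genes. TPM and group means together gave whole reads for 41578 genes (100% of values checked within 0.01 read), and 400 genes were not solved. Reads carried no molecular identifiers, so read numbers reflect counting error only in part. TPM + 1 was tested on the log2 scale with limma 3.58.1 (R 4.3.3) in 1 model over all samples with an eBayes trend, for genes reaching a TPM of 1 in 3 or more samples, with Benjamini-Hochberg adjustment over 30693 genes. Reads of 30522 genes were also simulated with 1 dispersion of 0.0167 shared by all genes. In separate runs, 200 genes above a minimum of mean reads were changed between GFPhi and GFPlo. Of these, 178 were called at 4-fold and 113 at 2.5-fold, beside 15 and 10 unchanged genes. With no gene changed, 6 were called. These shares do not apply to genes with few reads or a larger spread. No source says if samples of the same number share mice, and p-values measure the spread between these samples.

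All ligands are named. From the other lists (receptors, adaptors, shedding, other ligands, TCR-response genes and cell markers) genes are named where called or at a mean TPM of at least 10, exceptions being stated, and all others are counted, except 1 marker that is not reported here. Ligands, lists and tests were chosen with earlier results of these data known. Alternatives tried were no filter, a TPM filter at 5, a pseudocount of 0.1, quantile normalization, median-of-ratios scaling, fits of only 2 groups, no eBayes trend, a replicate block, each sample left out, no fold limit, and limma-voom on the solved reads. TPM on exonic length (GENCODE M21) and the ratios between neighbouring genes were chosen after seeing the data. Protein sequences were not used here.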

Additional observations from a re-analysis of the deposited data

How the results depend on the processing

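The count of ligands called between GFPhi and GFPlo fell from 2 to 1, leaving Lta, without a filter, at a TPM of at least 5 (where Tnfsf8 and Fasl were not tested), with median-of-ratios scaling, with quantile normalization and with only the 2 groups compared, and ranged from 1 to 2 when single samples were left out. It rose to 3 without the fold limit (Ltb added) and without the eBayes trend and with limma-voom under library totals and size factors (Fasl added). Whether same-numbered samples are paired is not known: deviations from the group means correlated at 0.012 to 0.22 (mean 0.061) between same-numbered samples and at -0.19 to 0.15 (mean -0.030) between others, and not every sample correlated best with its own number. They were treated as unpaired because not every correlation was over 0.1. With the replicate block the count was 1, Tnfsf8 losing its call. Within-block arrangements took the number of ligands with an adjusted trend p of at most 0.05 from 3 to 0. There the smallest adjusted permutation p of any gene was 0.169, so no other count was possible. Between GFPhi and GFPmed the count rose from 0 to 1 without the fold limit (Lta) and with limma-voom under library totals and size factors (Fasl). The count of adjusted trends was also 0 with median-of-ratios scaling and quantile normalization and ranged from 0 to 0 over samples left out, settings in which 0 of all genes tested passed and the smallest adjusted p was 0.0607 or more, so they say nothing about stability. Unadjusted, Lta had the smallest possible permutation p in 14 of 14 settings, and Ltb and Tnfsf8 in 13 of 14.

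No ligand that was called changed sign. Sign changes occurred in differences that were not called, of Tnfsf10, Tnfsf14 and Fasl. With samples left out, the log2 fold change between GFPhi and GFPlo ranged from -0.16 to 0.11 for Tnfsf10 (-0.08 without GFPhi replicate 1) and from -0.70 to 0.022 for Tnfsf14. Between GFPmed and GFPlo it ranged from -0.058 to 0.36 for Fasl (-0.05 without GFPlo replicate 2), from -0.11 to 0.16 for Tnfsf10 and from -0.45 to 0.00055 for Tnfsf14. Between GFPhi and GFPmed it ranged from -0.14 to 0.0024 for Tnfsf10 and from -0.47 to 0.25 for Tnfsf14, and it was 0.023 for Tnfsf10 with quantile normalization and 0.022 with limma-voom under size factors. The cause of these changes was not tested. Depth limits Fasl, Tnfsf8 and Tnfsf14 most, which had as few as 8, 46 and 23 reads in a sample. In GFPmed against GFPlo and at the midpoint, the count of ligands called was 0 under every alternative run.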
